A study of Oryctolagus cuniculus with 3 samples.

Results

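Genes of the extracellular matrix, 8 in number, were followed on 3 two-channel oligonucleotide arrays of day 6 rabbit embryos. They were the collagen IV chains COL4A1 and COL4A2, the laminin chain LAMC1, the linker NID1, the fibronectin gene FN1, the matrix protease gene MMP2, the collagen chaperone SERPINH1 and the integrin chain ITGA1. Probes were assigned to them from the annotation in the scanner output: a symbol, a RefSeq transcript or a gene number. The arrays carry 29 such probes, of which 23 are among the 22839 non-control probes of the deposited value table, and the 8 genes are part of 6484 genes that could be named there. The 8 genes were chosen by their log2 ratios of frozen over vitrified embryos on these same arrays. Those ratios are therefore given as a description without a test, and no count over them is offered as evidence of a change.

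Morulae recovered on day 3 were either slow-frozen or vitrified, placed in recipient does, and collected 3 days after transfer. Frozen embryos had been stored by slow freezing, whose steps the labels do not describe. Vitrified embryos had been held at 20 °C for 2 min in 12.5% dimethyl sulphoxide with 12.5% ethylene glycol and for 30 s in 20% of each, then plunged in 0.25 ml straws into liquid nitrogen, and after warming were kept for 5 min in 0.33 M sucrose. Each array set 1 sample from frozen embryos directly against 1 sample from vitrified embryos, with 100 ng of total RNA labelled for each, and the 3 arrays are labelled as biological replicates. Both kinds of embryo had been stored and transferred, and fresh embryos were not analysed here.

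A basement membrane is a thin sheet of matrix under an epithelium. Its frame is a network of collagen IV and a network of laminin, which nidogen links to each other. In the mammalian blastocyst the hypoblast (the primitive endoderm), the trophoblast and their derivatives lay down such sheets, and fibronectin is deposited beside them. Collagen chains are folded in the endoplasmic reticulum with the help of the chaperone encoded by SERPINH1, matrix proteases such as MMP2 cut the finished matrix, and integrins are the receptors by which cells hold on to it.

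The probe sequences below are those on which the results turn, read 5′ to 3′ from the scanner output as deposited. Starts are positions in the target transcript, and genome positions are those of the array design, whose build is not named in the files. COL4A1 and COL4A2 lie next to each other in the current RefSeq annotation of the rabbit (assembly mOryCun1.1), with 0 genes between them, and their probes can be lined up base for base. The COL4A1 probe starts at base 4944 (chr8:111526263-111526322, minus strand) and the COL4A2 probe at base 5043 (chr8:111791401-111791457, plus strand). The capitals mark the 21 of 60 bases that differ; the other 39 bases (65.0%) are identical, and both sequences end in a stop codon.
COL4A1: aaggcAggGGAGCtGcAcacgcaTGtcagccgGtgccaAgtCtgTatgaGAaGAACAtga
COL4A2: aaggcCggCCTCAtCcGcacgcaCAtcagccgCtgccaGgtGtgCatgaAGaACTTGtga

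FN1 was measured by 11 probes in 2 places of its transcript, all on the minus strand of chromosome 7 of the array design. One block of 5 probes starts at bases 4450 to 4462, and the other, of 6 probes, at bases 6926 to 7001, nearer the 3′ end. In each block 4 probes cross an intron. The first sequence below (chr7:156727406-156728584) stands for the 5′ block, and its capitals mark the 48 bases shared by all 5 probes of that block. The other sequences are a pair of probes of the 3′ block at the same place (chr7:156707123-156707693). They differ only by T55C, counted from 1 at the 5′ end of the probe, and the capital marks that base.
FN1-4450: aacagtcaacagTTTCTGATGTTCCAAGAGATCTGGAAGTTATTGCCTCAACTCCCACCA
FN1-6956a: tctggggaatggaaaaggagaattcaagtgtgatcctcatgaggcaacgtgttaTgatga
FN1-6956b: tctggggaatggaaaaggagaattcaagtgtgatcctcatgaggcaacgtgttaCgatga

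Probes of the laminin, nidogen, chaperone and integrin genes are shown because their labels or positions bear on the values. LAMC1-858 has no genome position in the array design, while LAMC1-5349 lies at chr9:16736876-16736932 on the minus strand and ends in a stop codon, given in capitals. NID1-3178 (chr16:32068349-32068408, minus strand) and NID1-3389 (chr16:32233937-32234618, plus strand) are placed on opposite strands by the design. SERPINH1-784 lies at chr1:141172278-141172337 on the minus strand, and ITGA1-3429, at chr11:68992652-68992711 on the plus strand, reads through the membrane-spanning segment of the integrin chain.
LAMC1-858: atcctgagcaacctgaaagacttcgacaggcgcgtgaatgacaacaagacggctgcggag
LAMC1-5349: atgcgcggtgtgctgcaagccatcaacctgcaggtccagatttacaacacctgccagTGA
NID1-3178: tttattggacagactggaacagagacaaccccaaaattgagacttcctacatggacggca
NID1-3389: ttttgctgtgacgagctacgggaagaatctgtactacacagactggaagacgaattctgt
SERPINH1-784: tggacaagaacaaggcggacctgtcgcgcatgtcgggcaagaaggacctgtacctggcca
ITGA1-3429: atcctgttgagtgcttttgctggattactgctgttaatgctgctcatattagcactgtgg

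All ratios are log2 of frozen over vitrified, so a negative value means a lower signal in frozen embryos. The dyes were exchanged on replicate 2, and the direction of its column is not stated but was inferred from 10 spike-in probes. These correlated at -1.0 between replicate 2 and either other array and at 0.99 between replicates 1 and 3. The inference takes each spike-in mix to have gone with the same dye on every array, which was not checked. Had the mixes gone with the samples, the direction would be the opposite. For that reason the mean of the brightest probe of each of the 8 genes, and of other genes where it bears on the direction, is also given with the sign of replicate 2 turned. The arrays differed among themselves, since over all probes the correlation was -0.36 between replicates 1 and 2, -0.01 between 1 and 3, and 0.48 between 2 and 3. Across all probes of the table limma called 0 at an adjusted p under 0.05 (0%), while 1020 probes (4.47%) had an unadjusted p under 0.05, 599 of them (2.62%) lower in frozen embryos. Only 3 arrays were run, which limits the precision. In RNA of whole embryos, fewer cells of a type and less RNA per cell cannot be told apart.

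Of the 8 genes, 5 had a lower signal in frozen than in vitrified embryos on all 3 arrays, namely COL4A2, NID1, FN1, MMP2 and ITGA1. Of all named genes, 11.6% did so. COL4A1 and SERPINH1 were lower in frozen embryos on replicates 2 and 3 and higher on replicate 1, and LAMC1, taken here by its brightest labelled probe, had values on both sides of 0. Of the 23 probes, 17 were below 0 on all 3 arrays, where 10.9% of the probes in the table were, and none was above 0 on all 3. A mean at least 1.5-fold lower in frozen embryos was found as well for 13 of those 17, beside 1.24% of table probes. These 13 were the 11 probes of FN1 and 2 of ITGA1, so they stand for 2 genes. The FN1 probes, which are also 11 of the 17, overlap within 2 stretches and are repeat readings. Means were below 0 in 7 of the 8 genes, beside 53.3% of named genes, and 7 were below 0 on both replicates 2 and 3, beside 25.8%. FN1 and ITGA1 were below 0 on every array and at least 1.5-fold lower on average in frozen embryos, as were 1.22% of named genes. The median of the 8 genes was -0.36, -0.72 and -0.93 on replicates 1, 2 and 3, beside medians of -0.08, 0.04 and 0.02 over all named genes. Since the genes were picked for values of this kind, nothing is read from these counts.

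**Figure D1:**
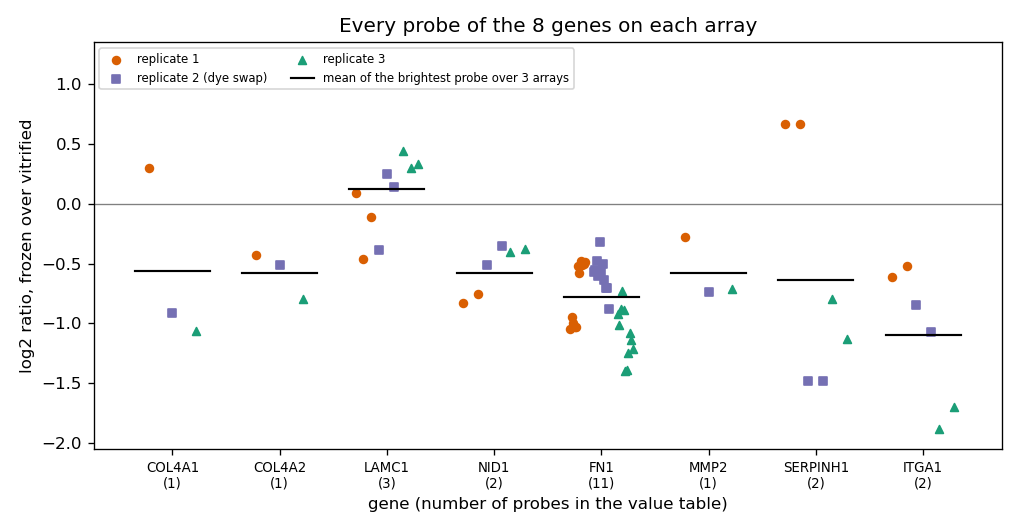
Each point is the log2 ratio of frozen over vitrified embryos (vertical axis) of 1 probe on 1 array, for the 8 genes as labelled (horizontal axis, with the number of probes in the value table), and black bars are the mean of the brightest probe over 3 arrays. All 11 FN1 probes lie below 0 on every array, while COL4A1 and SERPINH1 lie above 0 on replicate 1 and below 0 on the other arrays.

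COL4A1 and COL4A2 encode the chains that together form the commonest collagen IV trimer. COL4A1 had log2 ratios of 0.30, -0.91 and -1.06 on replicates 1, 2 and 3. Its processed intensities were 283 in frozen and 230 in vitrified embryos on replicate 1, and 401 in frozen against 838 in vitrified embryos on replicate 3. The sign of replicate 1 was thus opposite to that of the other arrays, and the mean was -0.56 ± 0.75 (SD, n = 3). With the sign of replicate 2 turned the COL4A1 mean was 0.05, so that its direction rests on that column.

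COL4A2 had log2 ratios of -0.43, -0.51 and -0.80. Its intensities were 320 in frozen and 432 in vitrified embryos on replicate 1, and 460 and 802 on replicate 3. Every array was below 0, with a mean of -0.58 ± 0.19 (SD, n = 3), or 1.5-fold lower in frozen embryos, and -0.24 with replicate 2 turned. COL4A1 minus COL4A2 came to 0.74, -0.39 and -0.26 on the 3 arrays, a mean difference of 0.03 ± 0.62. The chains therefore had like means, but their order on replicate 1 was opposite to that on the other arrays.

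LAMC1 encodes the gamma chain shared by most laminins. One of its labelled probes, LAMC1-858, had log2 ratios of 0.09, -0.39 and 0.44, a mean of 0.04 ± 0.42 (SD, n = 3), and 0.31 with replicate 2 turned. Its intensities were 461 in frozen and 435 in vitrified embryos on replicate 1, and 460 and 339 on replicate 3. The arrays lay on both sides of 0.

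The other probes labelled LAMC1 start at bases 4186 and 5349 and lie on chromosome 9 of the array design. Within 400 kb of them on that design lie 22 probe-bearing genes with a RefSeq name. All 22 are on the RefSeq chromosome that holds LAMB2, a laminin beta chain gene, and 0 are on that of LAMC1. On the array design the flanking named genes are USP19 and CIMIP7, and in RefSeq USP19 also lies next to LAMB2. These probes are therefore placed at LAMB2 and only LAMC1-858 can stand for LAMC1. For the other 6 genes with named neighbours, every neighbour lay on the RefSeq chromosome of the labelled gene, and NID1 had none. Those 6 had only 1 to 6 neighbours each. The only neighbour of COL4A1 was COL4A2 and the reverse, so the check says nothing apart from the labels for that pair.

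The probe at base 5349 had log2 ratios of -0.11, 0.14 and 0.33, a mean of 0.12 ± 0.22, and 0.03 with replicate 2 turned. The probe at base 4186 had -0.46, 0.25 and 0.30, a mean of 0.03 ± 0.43, and -0.14 with replicate 2 turned. Both were below 0 on replicate 1 and above 0 on the others, a pattern that LAMC1-858 did not share: it differed from them by up to 0.64 and 0.53 on a single array. None of the 3 probes gave a direction that held on every array.

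NID1 encodes nidogen 1, which ties laminin to collagen IV. NID1-3178 had log2 ratios of -0.83, -0.51 and -0.40. Its intensities were 441 in frozen and 786 in vitrified embryos on replicate 1, and 396 and 523 on replicate 3. All arrays were below 0, replicate 1 most, with a mean of -0.58 ± 0.23 (SD, n = 3), which is 1.5-fold lower in frozen embryos, and -0.24 with replicate 2 turned.

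NID1-3389, which crosses an intron, had log2 ratios of -0.75, -0.35 and -0.38 and a mean of -0.49 ± 0.22, or -0.26 with replicate 2 turned. The NID1 probes differed by at most 0.16 on any array, although the array design puts them on opposite strands. Both gave their lowest ratio on replicate 1 in the value table, but not with normexp and loess, where replicates 1 and 3 were -0.37 and -0.37 for NID1-3178 and -0.19 and -0.31 for NID1-3389.

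FN1 encodes fibronectin, a large matrix glycoprotein that integrins bind. Its brightest probe starts at base 6976 and had log2 ratios of -0.50, -0.70 and -1.14 on replicates 1, 2 and 3. Intensities of that probe were 3630 in frozen and 5140 in vitrified embryos on replicate 1, and 3690 and 8160 on replicate 3. The mean was -0.78 ± 0.33 (SD, n = 3), or 1.72-fold lower in frozen embryos, and -0.32 with replicate 2 turned. All 11 probes were below 0 on all 3 arrays, with means between -0.86 and -0.75.

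The 5′ block covers sequence of the repeat that carries the cell-binding motif of fibronectin. From base 4450 onward its 5 probes had ratios on replicate 1 of -1.05, -0.95, -1.0, -1.03 and -1.03. On replicate 2 the same probes gave -0.57, -0.55, -0.48, -0.60 and -0.32, and on replicate 3 they gave -0.92, -1.01, -0.88, -0.73 and -0.89. In the value table replicate 1 was thus the lowest or close to the lowest for this block, and replicate 2 the nearest to 0; with normexp and loess the block averaged -0.29 on replicate 1 and -0.73 on replicate 3, so that this order was lost. The block averaged -1.01, -0.51 and -0.88, a mean of -0.80 ± 0.26 over arrays, and -0.46 with replicate 2 turned.

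The 3′ block, of 6 probes from base 6926 onward, gave -0.52, -0.58, -0.48, -0.51, -0.50 and -0.49 on replicate 1. Its ratios were -0.57, -0.50, -0.64, -0.70, -0.70 and -0.88 on replicate 2, and -1.40, -1.39, -1.25, -1.08, -1.14 and -1.21 on replicate 3. Here replicate 1 was the nearest to 0 on average and replicate 3 the lowest. The block averaged -0.52, -0.67 and -1.25, a mean of -0.81 ± 0.39 over arrays, and -0.37 with replicate 2 turned. The probes FN1-6956a and FN1-6956b, which differ by T55C, stayed within 0.18 of each other on every array.

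The blocks had nearly the same mean over arrays but differed on single arrays. The 3′ block minus the 5′ block was 0.50, -0.16 and -0.36 on replicates 1, 2 and 3, and the SD over the probes of a block on 1 array was between 0.04 and 0.13. On replicates 1 and 3 the ranges of the blocks did not overlap, while on replicate 2 they did, at -0.88 to -0.50 in the 3′ block and -0.60 to -0.32 in the 5′ block. The blocks also differed in brightness, with mean log2 intensities of 8.21 to 8.45 in the 5′ block and 11.72 to 12.25 in the 3′ block. Probes of a block overlap, so they are repeat readings of 1 stretch and not replicates. Over the 213 transcripts that have probes 500 or more bases apart, the last probe minus the first had medians of 0.24, -0.13 and -0.06. The quartiles of those transcripts were -0.01 and 0.54 on replicate 1, -0.32 and 0.04 on replicate 2, and -0.26 and 0.13 on replicate 3. The FN1 difference averages the probes of each block while theirs takes single probes, so its place among these quartiles is not read. With normexp background correction and loess the block difference was -0.19 on replicate 1 and -0.52 on replicate 3, so its sign on replicate 1 depended on the processing.

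**Figure D2:**
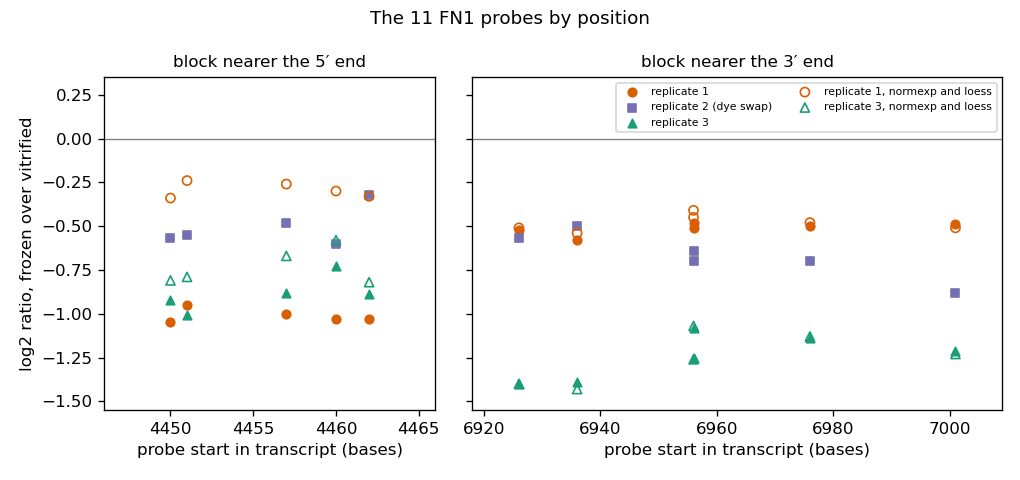
The log2 ratio of frozen over vitrified embryos (vertical axis) of each FN1 probe is plotted against its start in the transcript (horizontal axis, bases), with 1 colour and marker per array. In these value table ratios replicate 1 is lowest in the 5′ block, at -1.01 on average (-0.29 with normexp and loess), while in the 3′ block replicate 3 is lowest, at -1.25.

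MMP2 encodes a gelatinase that also cuts collagen IV. One of its 6 probes, starting at base 2450, is in the value table, with log2 ratios of -0.28, -0.74 and -0.71. Its intensities were 72.9 in frozen and 88.7 in vitrified embryos on replicate 1, and 79.8 and 130 on replicate 3. All arrays were below 0 and replicate 1 was nearest to it. The mean was -0.58 ± 0.25 (SD, n = 3), or 1.49-fold lower in frozen embryos, and -0.09 with replicate 2 turned.

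The other 5 MMP2 probes start at bases 1896 to 1910 and are outside the value table. Their scanner ratios were -0.74, -0.41, -0.76, 1.21 and -1.0 on replicate 1. On replicate 3 they were -0.22, -0.98, -0.65, -0.38 and -0.76. All but the reading of 1.21 on replicate 1 were below 0. Intensities there were between 6.77 and 43.1 over all channels. Only the probes at bases 1896 and 1910 were flagged as well above background in all 4 channels, and none of the 5 has a value for replicate 2.

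SERPINH1 encodes HSP47, the collagen-specific chaperone of the endoplasmic reticulum. SERPINH1-784 had log2 ratios of 0.67, -1.48 and -1.13. Its intensities were 231 in frozen and 145 in vitrified embryos on replicate 1, and 171 and 373 on replicate 3. The sign on replicate 1 was again opposite to that on the other arrays, as for COL4A1. The mean was -0.64 ± 1.15 (SD, n = 3), the widest spread of the 8 genes, and 0.34 with replicate 2 turned, so that no direction can be given. A SERPINH1 probe at base 248 had 0.67, -1.48 and -0.80, a mean of -0.54 ± 1.1 that became 0.45 with replicate 2 turned, and differed from SERPINH1-784 by at most 0.32 on any array.

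ITGA1 encodes the alpha 1 integrin chain, which with the beta 1 chain forms a receptor for collagens, collagen IV included. ITGA1-3429 had log2 ratios of -0.52, -1.07 and -1.70. Its intensities were 61.2 in frozen and 88.0 in vitrified embryos on replicate 1, and 44.3 and 144 on replicate 3. All arrays were below 0 and replicate 3 was the lowest. The mean was -1.10 ± 0.59 (SD, n = 3), or 2.14-fold lower in frozen embryos and the lowest mean of the 8 genes, and -0.38 with replicate 2 turned.

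An ITGA1 probe that crosses an intron, at base 3354, had -0.61, -0.85 and -1.88, a mean of -1.11 ± 0.68 (-0.55 with replicate 2 turned), within 0.22 of ITGA1-3429 on every array. A probe at base 3310 is outside the value table. It had intensities of 12.0 in frozen and 22.8 in vitrified embryos on replicate 1, and 7.94 and 32.6 on replicate 3, but was flagged as well above background only in vitrified embryos on replicate 3, so no ratio is given for it. The ITGA1 probes in the table were dim, and both were lower in frozen embryos on every array.

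**Figure D3:**
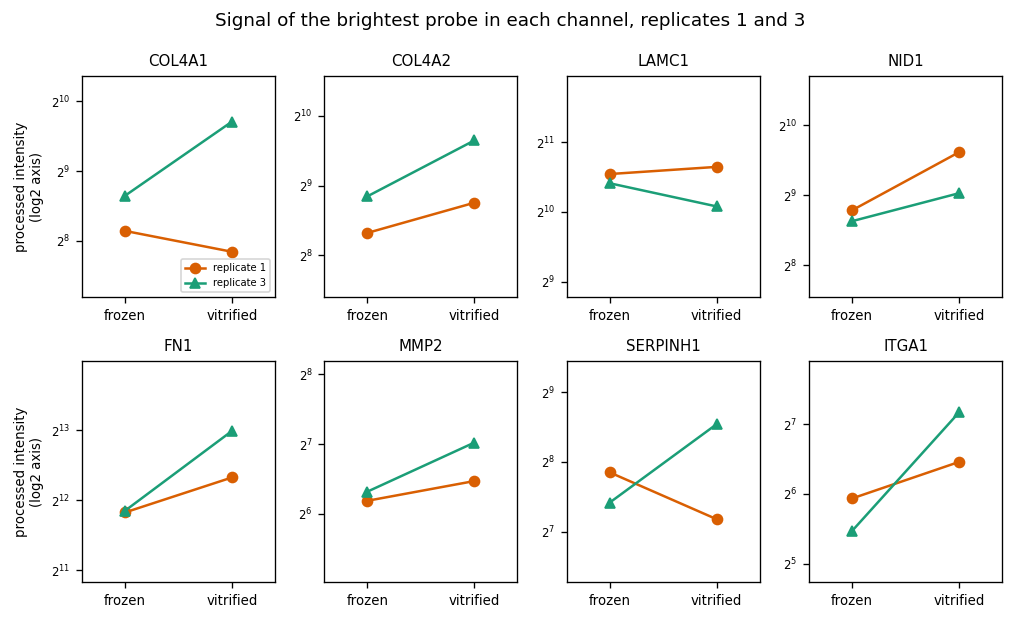
Processed intensity (vertical axis, log2 axis) of the brightest probe of each gene in frozen and vitrified embryos, with a line for each of replicates 1 and 3, the arrays whose scanner output was used; the LAMC1 panel shows the probe at base 5349. On replicate 3 the frozen channel is the lower in every gene except LAMC1, while on replicate 1 it is the higher in COL4A1 and SERPINH1.

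Other processing of the scanner output, in which both background correction and dye normalization differ, changed the size of the ratios on replicates 1 and 3. With normexp and loess the ratios on replicates 1 and 3 were 0.08 and -1.01 for COL4A1, -0.11 and -0.72 for COL4A2, and -0.37 and -0.37 for NID1. They were 0.15 and -0.99 for SERPINH1, -0.04 and -0.49 for MMP2, and -0.04 and -1.11 for ITGA1. On replicate 1 the values of all 6 were thus nearer to 0 than in the value table. On replicate 3 all 6 were nearer to 0 as well but stayed below it, and ITGA1 moved most, from -1.70 to -1.11. The brightest FN1 probe hardly moved, with -0.48 on replicate 1 and -1.13 on replicate 3.

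Other genes of the same pathway were taken from a list of 94 arranged by role, of which 37 were measured and 23 more have probes on the array but none in the value table. Of the 37 genes, 9 were below 0 on all 3 arrays and 4 above 0, beside 11.6% and 10.7% of named genes. ECM1, a secreted matrix glycoprotein, was the only one with a mean at least 1.5-fold lower in frozen embryos, where 1.82% of named genes were, and none of the 37 was that much higher. The median of the 37 genes was -0.13, and 0.00, -0.13 and -0.07 on replicates 1, 2 and 3, against -0.01 over all named genes, and it was 0.04 with replicate 2 turned. None of the 37 passed the adjusted p of limma. ECM1 had -0.14, -0.76 and -1.25, a mean of -0.71 ± 0.56 (SD, n = 3), and -0.21 with replicate 2 turned.

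Among the basement membrane collagens 1 of 6 other genes was measured. COL4A5, an X-linked collagen IV chain, had 0.61, -1.21 and -1.0, a mean of -0.53 ± 0.99 that became 0.27 with replicate 2 turned, and it had the sign of COL4A1 on each array. None of the 10 other laminin genes was measured under its own name. Of the linkers, 2 of 8 were measured. PXDN, the peroxidase that crosslinks collagen IV, had -0.46, -0.42 and -0.78, a mean of -0.55 ± 0.20 with every array below 0, and NID2, the second nidogen, averaged -0.21 ± 0.34 with values on both sides. With replicate 2 turned both means were -0.28.

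Fibronectin stood beside 6 other measured matrix genes, of which 4 were below 0 on all arrays, beside 11.6% of named genes. Among those 4, some values lay close to 0. On replicate 1 COL1A2 had -0.06 and COL5A2 -0.03, and COL5A2 had -0.08 on replicate 3 (both genes named after their values were seen). COL5A1, a chain of fibrillar collagen V, averaged -0.22 ± 0.08, and COL2A1, the chain of cartilage collagen II, -0.08 ± 0.10. With replicate 2 turned these means were -0.05 and 0.00. COL2A1 was taken by its brightest probe, and its 4 probes had means between -0.53 and 0.02. Of the 10 measured genes of collagen handling beside SERPINH1, 2 were below 0 on all arrays, beside the same 11.6%. P4HB, which with its partner chains hydroxylates proline in collagen, had -1.15, 0.40 and -0.01, a mean of -0.25 ± 0.80, and PPIB, a prolyl isomerase of the same compartment, averaged -0.16 ± 0.03. With replicate 2 turned the means were -0.52 for P4HB and -0.07 for PPIB. The arrays thus gave P4HB and SERPINH1 opposite signs on replicates 1 and 2.

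Of the 6 measured proteases and inhibitors beside MMP2, 1 was below 0 on all arrays and none above, beside 11.6% and 10.7% of named genes. The collagenase gene MMP1 averaged 0.16 ± 0.26, with values on both sides of 0, and 0.20 with replicate 2 turned. Of the 12 measured receptors beside ITGA1, each taken by its brightest probe, 1 was below 0 on all arrays and 4 were above, beside the same shares. ITGB1, whose product is the partner of the ITGA1 product, had 0.12, 0.05 and 0.02, a mean of 0.06 ± 0.05, and 0.03 with replicate 2 turned. Its ratios stayed close to 0 on every array while those of ITGA1 were all below -0.50. ITGA6, a laminin receptor chain, averaged -0.05 ± 0.21 at its brightest probe, and 0.14 with replicate 2 turned. Its 7 probes had means between -0.13 and 0.30.

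**Figure D4:**
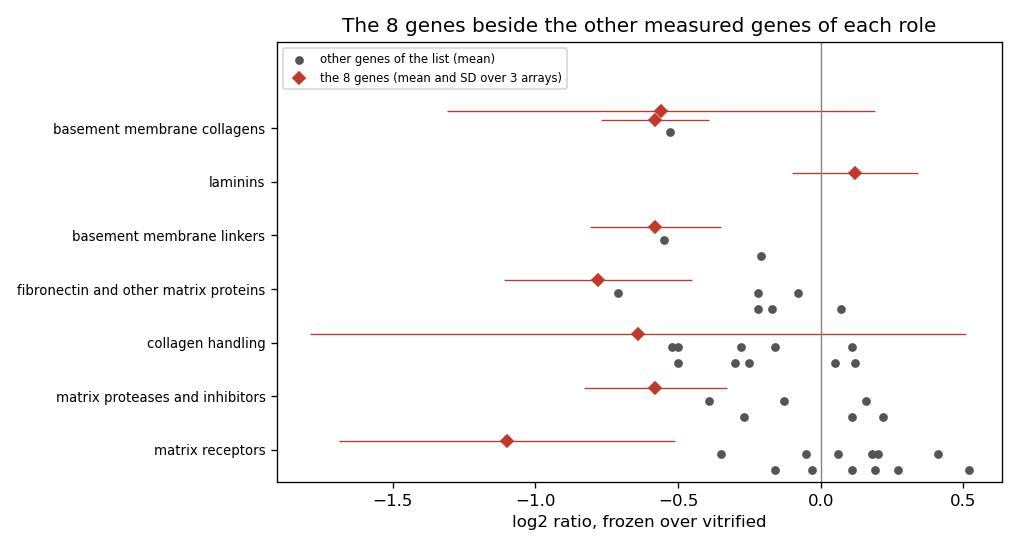
Mean log2 ratio of frozen over vitrified embryos (horizontal axis) for the 8 genes (red, with the SD over 3 arrays) and for the 37 other measured genes of the list (grey, means only), by role (vertical axis; LAMC1 is plotted by its brightest labelled probe). The medians of the grey points are -0.53 for basement membrane collagens, -0.38 for linkers, -0.19 for other matrix proteins, -0.27 for collagen handling, -0.01 for proteases and inhibitors and 0.14 for receptors.

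The mean profile of the 8 genes was -0.21, -0.72 and -0.83 on replicates 1, 2 and 3. Among 6439 named genes outside the list, the nearest profile over the 3 arrays was that of OTC, a urea cycle enzyme, with -0.15, -0.74 and -0.76 and a root mean square difference of 0.0552. Next came the cholesterol exporter ABCA1 at 0.101, the fatty acid binding protein gene FABP5 at 0.109, and the amino acid transporter genes SLC7A9 at 0.115 and SLC1A5 at 0.118. With only 3 arrays such likeness is a description.

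Markers of the cell types that lay down or could surround this matrix are given for the same arrays, as values without a test. Of the 15 hypoblast markers listed, 8 were measured, all with a mean below 0, and 5 were below 0 on all arrays, beside 53.3% and 11.6% of named genes; their median was -0.09, -0.75 and -1.15 on the 3 arrays. Their summed intensity was 3250 in frozen and 2580 in vitrified embryos on replicate 1, and 2850 in frozen and 7580 in vitrified embryos on replicate 3. The brightest, DKK1, a secreted Wnt inhibitor, had 0.59, -1.58 and -1.37, the signs of COL4A1 and SERPINH1.

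The 5 measured of 8 trophoblast markers had medians of -0.16, 0.26 and 0.33, and summed intensities of 13500 in frozen and 21100 in vitrified embryos on replicate 1 and 20900 in both on replicate 3. Their brightest, the keratin gene KRT8, had -0.74, 0.37 and -0.10. The 3 measured of 6 epiblast markers had medians of -0.75, -0.06 and -0.63, with sums of 8040 in frozen and 12000 in vitrified embryos on replicate 1, and 6500 and 12200 on replicate 3. POU5F1, the pluripotency factor, had -0.75, -0.52 and -1.62. Means were below 0 in 2 of these 3 genes, and DPPA5, named after its values were seen, had -0.15, 0.13 and 0.42. The hypoblast and epiblast lists thus had medians below 0 on every array, and the trophoblast list on replicate 1 only. The hypoblast median of -0.09 on replicate 1 was, however, close to the -0.08 of all named genes. On replicate 2 the epiblast median of -0.06 stood beside 0.04 over all named genes.

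The 3 measured of 8 uterine markers had medians of -0.30, -0.01 and -0.35, with sums of 635 in frozen and 975 in vitrified embryos on replicate 1, and 251 and 292 on replicate 3. Uteroglobin, encoded by SCGB1A1, had -0.67, -0.62 and 0.13. The 4 measured of 8 blood markers had medians of 1.21, -1.24 and -0.90. They summed to 35700 in frozen and 6640 in vitrified embryos on replicate 1, and to 6750 in frozen and 56800 in vitrified embryos on replicate 3. The alpha globin gene HBA had 1.88, -2.23 and -1.79, and the beta globin gene HBB2 2.62, -3.77 and -3.59. The other blood markers, named after their values were seen, did not share these signs on all arrays: CD14 had -0.07, -0.24 and -0.01, and S100A9 had 0.54, -0.15 and 0.25. The globins, COL4A1, COL4A5, SERPINH1 and DKK1 thus shared their signs on all 3 arrays. Of all named genes, 25.8% were below 0 on replicates 2 and 3, and 11.6% were below 0 on all 3 arrays. In the value table COL4A2, NID1, FN1, MMP2 and ITGA1 were below 0 also on replicate 1, where the globins were high. With normexp and loess the brightest probes of these genes gave -0.11, -0.37, -0.48, -0.04 and -0.04 on replicate 1, in that order. The part of cell makeup or blood in the values of the 8 genes was not tested.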

How the data were processed

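The authors deposited a value table of log2 ratios for 3 arrays and scanner output for replicates 1 and 3; no scanner output of replicate 2 was analysed here. The software was Agilent Feature Extraction 10.10.1.1, per the submitters' processing notes. Its output holds, per the file headers, a processed intensity for each channel after background subtraction and dye normalization, and the log10 of red over green. The deposited log2 values of replicates 1 and 3 equalled the log2 ratio of processed red over green intensity within 2.8e-06 and 2.4e-06 over 22818 single-spot probes, which is frozen over vitrified. Column medians were -0.015, 0.021 and 0.017; scale and direction of replicate 2 are unstated. All 22839 table probes were well above background on both scanner arrays and 0 were saturated; how the authors filtered probes is not stated. Columns of other samples numbered 0.

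Of the probes, 13894 were named from the scanner annotation and a RefSeq gene table (mOryCun1.1). The brightest probe by mean log2 processed intensity stands for a gene. Each ratio was tested against 0 with limma 3.58.1 in R 4.3.3 (lmFit, eBayes, Benjamini-Hochberg, threshold 0.05), for background only. The fit was tested on simulated data with larger changes than those of the 8 genes, so that test does not show whether changes of their size would be found. Joins used pandas 2.3.3 (Python 3.11.15). With 3 arrays the smallest exact p of a sign-flip test is 0.25, so none was run. The 8 genes, the pathway and marker lists and the rule for named genes were chosen with earlier results of these data known. The rule takes the 8 genes with every probe, pathway genes with a mean of at least 1.5-fold, the 2 brightest genes per role, the 5 nearest profiles, HBA1 (HBA in RefSeq) and the brightest gene of each marker list; other names are said to be chosen after their values were seen. A gene that the rule takes is not reported here. Alternatives turned the sign of replicate 2, left out each replicate, centred arrays, used normexp (offset 50) with loess or processed intensities, averaged probes, dropped the dimmest 25% of probes, or changed the limma model. The alternatives from scanner output cover replicates 1 and 3 only. For the 8 genes and the pathway genes, processed intensities therefore repeat the setting without replicate 2 and are no separate check.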

Additional observations from a re-analysis of the deposited data

How the results depend on the processing

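With the sign of replicate 2 turned, the median of the 8 genes was -0.16 in place of -0.58, and 0 of the 8 in place of 5 were below 0 on all arrays, where 15.3% of named genes were; genes below 0 on replicate 2 cannot be once it is turned, so this count follows from how the genes were chosen. COL4A1 and SERPINH1 then had means of 0.05 and 0.34, and no other alternative changed the sign of any of the 8 means. Over all alternatives the median of the 8 genes ran between -0.82 and -0.16. Without replicate 1, 7 of the 8 genes were below 0 on both remaining arrays, where 25.8% of named genes were, and over the settings that left out 1 replicate the count was between 5 and 7. Without the dimmest 25% of probes the count was 3 of 6, since MMP2 and ITGA1 then have no value. Taking LAMC1 from LAMC1-858 alone, an alternative added after seeing the data, left the median of the 8 genes at -0.58 and the count at 5. The median of the 37 other pathway genes, -0.13, became 0.04 with replicate 2 turned, -0.02 with normexp and loess, -0.03 with processed intensities and -0.03 without dim probes. It ran between -0.09 and -0.03 when 1 replicate was left out, -0.03 being without replicate 2. That last value and the one with processed intensities are the same reading of replicates 1 and 3. Of the 37 genes, 9 were below 0 on all arrays, but 4 with replicate 2 turned, 10 to 17 when 1 replicate was left out, 17 being without replicate 1, and 5 of 27 without dim probes. With 1 replicate left out the count asks for 2 arrays in place of 3, so it is not like the 9. Limma called 0 probes in each setting except without replicate 1, where it called 796, so the leave-one-out range was 0 to 796; with an intensity trend and robust prior 980 had an unadjusted p under 0.05, and with a dye covariate 759. Probes of 1 sign with a mean of at least 1.5-fold numbered 432, but 280 with replicate 2 turned, 240 with normexp and loess, 1121 with processed intensities, 236 without dim probes, and 469 to 1193 when 1 replicate was left out. These counts are not alike. Normexp with loess, processed intensities and leaving out 1 replicate ask for 1 sign on 2 arrays, the others on 3. Processed intensities covered 23093 probes and the setting without dim probes 17129, in place of 22839. The cause was not tested. Each array holds both kinds of embryo, so testing its log2 ratio against 0 already compares them in pairs. There is 1 group of 3 arrays, and no further pairing was used.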

Other observations

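Some further genes of the matrix list were chosen after their values were seen. PLOD2, a lysyl hydroxylase, had log2 ratios of frozen over vitrified of 0.19, -0.83 and -0.86, a mean of -0.50 ± 0.60 (SD, n = 3) that became 0.05 with the sign of replicate 2 turned, and P4HA2, a prolyl hydroxylase chain, averaged -0.52 ± 0.48, and -0.11 with it turned. LOXL2, a lysyl oxidase that crosslinks collagen, was below 0 on every array at -0.71, -0.49 and -0.29. TIMP3, an inhibitor of matrix proteases, was below 0 on every array too, at -0.30, -0.35 and -0.51. Of all named genes, 11.6% were below 0 on all arrays. With the sign of replicate 2 turned the means were -0.17 for LOXL2 and -0.15 for TIMP3. Both probes were dim, with mean log2 intensities of 5.6 and 5.92, beside a median of 8.63 over the table probes.

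The 4 receptor genes above 0 on all arrays by their brightest probe, as were 10.7% of named genes, were ITGA5, ITGB1, DAG1 and SDC4. SDC4, a heparan sulphate proteoglycan that binds fibronectin, had 0.24, 0.35 and 0.65, a mean of 0.41 ± 0.21. ITGA5, the alpha chain of the classical fibronectin receptor, had 0.15, 0.18 and 0.20 at its brighter probe, a mean of 0.18 ± 0.03. The other ITGA5 probe had a mean of -0.20, so no direction can be given for this gene. DAG1, which encodes the laminin receptor dystroglycan, had 0.14, 0.10 and 0.07. With the sign of replicate 2 turned the means were 0.18 for SDC4, 0.06 for ITGA5 and 0.04 for DAG1. ITGA2, which encodes another collagen-binding integrin chain, had 1.27, -0.01 and 0.30, a mean of 0.52 ± 0.67, so its arrays did not share a sign. Its 3 probes had means between -0.12 and 0.52.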
